A study of Ovis aries with 30 samples.

Results

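Adult sheep lung was compared with sheep lung 10 weeks after birth. The 10 arrays of the comparison, 5 adult and 5 at 10 weeks, were those whose titles name lung and either adult or 10 weeks, of 30 arrays in the series. The series also holds lung at fetal day 90 and kidney at all 3 ages, with 5 arrays in each of its 6 groups. All animals were sheep (Ovis aries). The labels give no breed, sex, treatment or genetic change for any animal, and no age in weeks for the adults. The submitters' design text calls the arrays of a group biological replicates, so each array is taken as 1 animal here. Total RNA from frozen tissue was labelled with biotin and hybridised to an Affymetrix bovine array, so sheep transcripts were read by cattle probes. Arrays are named by the ends of their titles: 7, 8, 10, 11 and 12 at 10 weeks, and AD-204, AD-286, AD-287, AD-297 and AD-299 in adults. Where the values of all arrays are given, they stand in that order.

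The lamb's lung is still growing at 10 weeks, while the adult lung mainly maintains and defends its surface. In the growing lung, fibroblasts lay down elastin and collagen, and vessels and air spaces enlarge together under the control of growth factors from mesenchyme, endothelium and epithelium. Many genes that promote growth before birth, among them several imprinted genes (expressed from only the maternal or the paternal copy), are known to be switched down as mammals grow. The mature lung is known for surfactant made by alveolar type II cells, for ciliated and secretory cells of the airways, and for resident immune cells.

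The tissue label was borne out by the marker genes. SFTPC, the surfactant protein made by alveolar type II cells, had log2 values of 12.40, 12.40, 12.47, 12.10 and 12.20 at 10 weeks and 12.47, 12.45, 12.44, 12.50 and 12.57 in adults, against 5.34 to 5.88 in the 10 kidney arrays of the same ages. UMOD, the main protein of the kidney's ascending limb, lay from 5.21 to 6.10 in the 10 lung arrays and from 12.44 to 13.26 in those kidney arrays. Array medians lay between 6.68 and 6.81. The lowest correlation between adult arrays across genes was 0.987, and between 10-week arrays 0.973, or 0.988 without array 12. The first principal component, with 34.5% of the variance, separated the ages, and the second, with 22%, set array 12 apart from the other 9. No array was left out of the main results. Without array 12, 14 of the 175 called genes named here lost their call, with adjusted p-values from 0.0511 to 0.0695 in limma's fit of the other 9 arrays. These were IGF1, IGFBP2, ASPM, DNMT3A, FBLN5, TCF21, VEGFC, CALD1, KCNJ8, ISG15, IFI35, C7, NDUFA2 and HSPA1A. XIST, expressed from the inactive X chromosome, was read at 11.29 to 11.74 at 10 weeks and 11.41 to 11.76 in adults, and ZFY, on the Y chromosome, at 3.29 to 3.75 at 10 weeks and 3.11 to 3.45 in adults. The sources used here give no hybridisation or scan date, so age and any batch that followed it cannot be told apart. The p-values measure the spread between these samples only.

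Of 9155 genes, 689 differed between the ages at an adjusted p below 0.05 (7.53% of genes). The test was limma's, two-sided, with Benjamini-Hochberg adjustment over all genes, and every adjusted p below is of this kind. The call rate was 4.75% for genes higher in adults, with 435 genes, and 2.77% for genes lower in adults, with 254 genes. Each count of called list members below stands beside these shares of all genes. At an unadjusted p below 0.05 there were 2145 genes. Most called changes were small. Their median was 0.65 on the log2 scale for rises and -0.65 for falls, and 87 rises and 36 falls reached 2-fold. The arrays of both ages did not overlap for 804 genes (8.78%), 544 of them called. Over all genes the median change was 0.04, and 57.2% of genes had a positive change. The share of called genes that were higher depended on the scaling. It was 63.1% with the deposited values, 48.0% after a further quantile normalisation and 39.0% after centring each array on its median, which moved the median change of all genes by -0.10. Small rises are therefore read relative to that shift. Without array 12 the fit called 917 genes. It called 425 without adult array AD-204, 408 without adult array AD-286, and 453, 453, 445 and 459 without 10-week arrays 7, 8, 10 and 11.

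**Figure D1:**
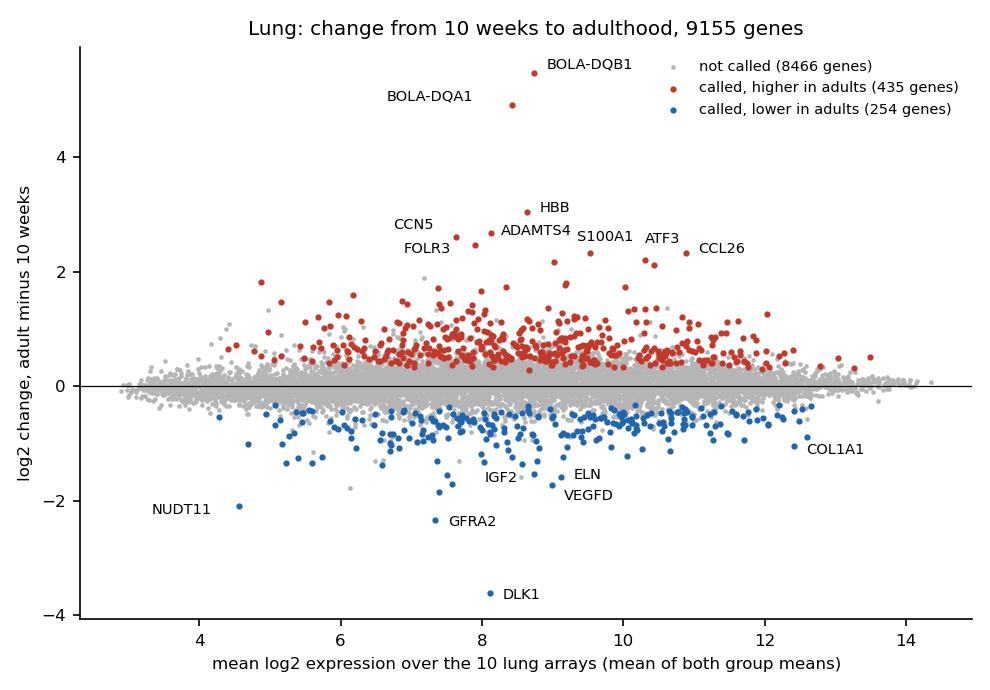
Log2 change from 10 weeks to adulthood (y axis) against the mean log2 expression of each gene in the 10 lung arrays (x axis), 1 point per gene. The 435 genes called higher in adults and the 254 called lower are coloured, and BOLA-DQB1 at 5.47 and DLK1 at -3.61 lie farthest from 0.

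Several growth genes of early life were lower in adult lung. Of 18 measured imprinted growth genes, 8 fell and none rose, beside the 2.77% of all genes that fell, and the list's median change was -0.46. Of 10 fetal growth regulators, 4 fell and none rose, with a median of -0.51, or -0.32 without array 12. The lists share DLK1, which had the greatest fall of all genes called. DLK1, a membrane and secreted protein that holds precursor cells back from maturing, had log2 values of 10.00, 10.14, 8.75, 10.01 and 10.69 at 10 weeks and 6.89, 5.83, 6.76, 5.93 and 6.12 in adults. Every adult array lay below every 10-week array. DLK1 fell by 3.61 on the log2 scale (SE 0.32, adjusted p = 0.000187), a 12.2-fold lower level. A dimmer DLK1 probe set fell by 1.77, with overlapping arrays. At fetal day 90, the lung arrays read DLK1 at 12.28 to 13.07.

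PEG10, an imprinted gene derived from a retrotransposon, read 9.65, 9.31, 8.91, 9.13 and 9.21 at 10 weeks and 7.80, 8.10, 7.81, 7.49 and 8.22 in adults. The groups did not overlap, and PEG10 fell by 1.36 (SE 0.16, adjusted p = 0.000854). PEG3, an imprinted zinc finger gene, read 7.88, 7.24, 6.99, 7.68 and 6.61 at 10 weeks and 5.99, 6.41, 5.66, 5.28 and 6.14 in adults, again without overlap, and fell by 1.38 (SE 0.26, adjusted p = 0.00826). Its 4 dimmer probe sets changed by -0.49, 0.07, 0.16 and -0.23, all with overlap between the ages.

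MEST, an imprinted gene for a hydrolase-like protein of embryonic mesoderm, read 9.95, 10.03, 9.85, 9.81 and 9.91 at 10 weeks and 8.54, 9.15, 8.35, 9.02 and 9.66 in adults. The 10-week arrays lay within 0.22 of each other, while the adult arrays spread from 8.35 to 9.66 and still did not reach them. MEST fell by 0.97 (SE 0.20, adjusted p = 0.0149), but a second probe set of nearly the same brightness changed by only -0.11. Of the 2 dimmer MEST probe sets, 1 fell by 0.77 without overlap and 1 changed by -0.24 with overlap. CDKN1C, which restrains the cell cycle, fell by 0.54 (SE 0.09, adjusted p = 0.00464). MAGEL2, from the imprinted cluster studied in Prader-Willi syndrome, fell by 0.81 (SE 0.14, adjusted p = 0.00684). PLAGL1, a zinc finger regulator of other imprinted genes, fell by 0.67 (SE 0.18, adjusted p = 0.041). The PLAGL1 call held in 3 of 10 fits that each left out 1 array, with a largest adjusted p of 0.0979.

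The insulin-like growth factors were lower in adults as well, with less support. IGF2, the main growth factor of the fetus, read 9.63, 9.53, 8.78, 9.89 and 9.69 at 10 weeks and 7.94, 8.93, 7.28, 7.60 and 8.15 in adults. The groups overlapped through adult array AD-286 and 10-week array 10, and IGF2 fell by 1.52 (SE 0.28, adjusted p = 0.00835). This rests on the brightest of 4 IGF2 probe sets, since the other 3 changed by -0.23, -0.11 and 0.01. With the mean of all probe sets, or without probe sets named as matching several transcripts, IGF2 was not called. IGF1, the growth factor that follows growth hormone, read 7.57, 7.73, 7.70, 7.35 and 7.66 at 10 weeks and 7.24, 7.28, 6.81, 7.31 and 7.26 in adults, without overlap, and fell by 0.42 (SE 0.12, adjusted p = 0.0492). The call held in 1 of 10 leave-one-out fits (largest adjusted p 0.111). IGFBP2, a binding protein for both factors, fell by 0.66 (SE 0.17, adjusted p = 0.0391), called in 3 of those 10 fits (largest adjusted p 0.0884). Over the 17 measured genes of the insulin-like growth factor axis these were the 3 falls, with no rise and a median change of -0.03.

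Among the fetal growth regulators, IGF2BP3, an RNA-binding protein that steadies IGF2 messages, read 8.74, 8.47, 8.05, 8.81 and 8.10 at 10 weeks and 8.01, 6.07, 7.22, 6.39 and 5.94 in adults. Adult array AD-204 at 8.01 lay close to the 10-week arrays, and the other adult arrays lay at 7.22 or below. IGF2BP3 fell by 1.71 (SE 0.35, adjusted p = 0.013). Its relative IGF2BP1 was read at 4.78 ± 0.27 at 10 weeks and 4.79 ± 0.21 in adults, with no call. GPC3, a cell surface proteoglycan that limits growth signalling, fell by 0.68 (SE 0.11, adjusted p = 0.00372). PTN, a heparin-binding growth factor, fell by 0.84 (SE 0.19, adjusted p = 0.023), and its call held in 6 of 10 leave-one-out fits (largest adjusted p 0.0556).

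Cell cycle genes gave few calls, beside the 7.53% of all genes called. Of 34 measured mitotic genes, 30 had a negative change and the median was -0.40, but only ASPM was called. ASPM, a spindle pole protein, read 7.32, 6.96, 7.15, 6.99 and 7.4 at 10 weeks and 7.11, 6.15, 6.59, 6.06 and 5.71 in adults, with adult array AD-204 among the 10-week values, and fell by 0.84 (SE 0.22, adjusted p = 0.0394). That call held in 2 of 10 leave-one-out fits (largest adjusted p 0.0911). CDK1, the kinase that drives entry into mitosis, changed by -0.62 (SE 0.19, adjusted p = 0.0662), with values of 7.74, 7.64, 7.20, 7.39 and 7.25 at 10 weeks and 7.20, 6.51, 7.29, 6.77 and 6.33 in adults. Adult arrays AD-204 and AD-287 were as high as the lower 10-week arrays. The mean level of the mitotic list ran from 7.28 to 7.66 at 10 weeks and from 6.76 to 7.57 in adults, so the ages overlapped. For 36 DNA replication genes there was no call and the median was -0.04. The brightest members were RFC5, a clamp loader subunit, at 11.41 ± 0.04 at 10 weeks and 11.42 ± 0.06 in adults, and RPA3, which binds single-stranded DNA, at 11.36 ± 0.14 at 10 weeks and 11.19 ± 0.10 in adults. Among 17 genes of chromatin and DNA methylation, the single call was DNMT3A, a methyltransferase that sets new methyl marks. It fell by 0.49 (SE 0.13, adjusted p = 0.0362) and was called in 2 of 10 leave-one-out fits (largest adjusted p 0.0859). EZH2, which sets a repressive histone mark, changed by -0.34 (SE 0.21, adjusted p = 0.382).

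**Figure D2:**
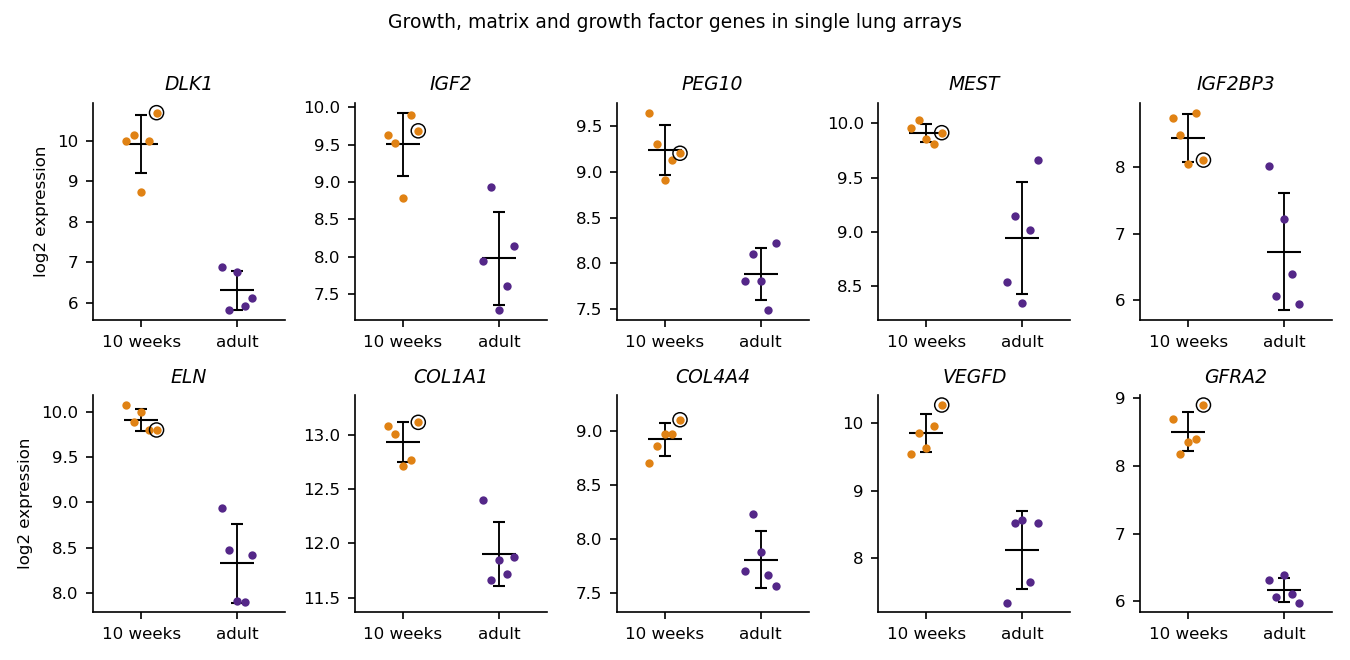
Log2 expression (y axis, a separate range per gene) of 10 growth, matrix and growth factor genes in the 5 arrays at 10 weeks and the 5 adult arrays, with mean and SD in black and array 12 circled. Adult arrays lie below all 10-week arrays in every panel except IGF2, where adult array AD-286 at 8.93 lies above 10-week array 10 at 8.78.

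Several matrix genes were lower in adults, and others were higher. Of 25 measured genes for fibrillar collagen and its processing, 7 fell and none rose. Of 12 basement membrane genes 3 fell and none rose. Of 15 elastic fibre genes 2 fell and none rose, but without array 12, which had the highest 10-week mean of that list, 2 rose and 1 fell. With array weights 2 rose and 2 fell. The fibroblast and myofibroblast list gave 6 falls and no rise among 22 genes. That count was 0 falls with all 15 lung arrays in the fit, and 3 falls and 1 rise with 30 arrays. In these bulk samples, fewer cells of a type and less RNA per cell cannot be told apart.

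ELN, which encodes elastin of the elastic fibres, read 10.07, 9.89, 9.99, 9.80 and 9.80 at 10 weeks and 8.93, 8.48, 7.91, 7.90 and 8.43 in adults. The lowest 10-week array was 0.86 above the highest adult array, and ELN fell by 1.58 (SE 0.18, adjusted p = 0.000854), a 2.99-fold lower level. A dimmer ELN probe set fell by 0.51, with overlap. The 10-week level, 9.91 on average, was above that of the fetal arrays, which ran from 7.99 to 9.78. FBLN5, a protein needed to assemble elastic fibres, fell by 0.38 (SE 0.11, adjusted p = 0.0475), called in 1 of 10 leave-one-out fits (largest adjusted p 0.109).

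COL1A1, a chain of type I collagen, read 13.08, 13, 12.71, 12.77 and 13.11 at 10 weeks and 12.40, 11.67, 11.84, 11.72 and 11.87 in adults. Adult array AD-204 was the highest adult but still below all 10-week arrays, and COL1A1 fell by 1.04 (SE 0.15, adjusted p = 0.00239). COL1A2, the partner chain, fell by 0.57 (SE 0.13, adjusted p = 0.0199), and lost its call without adult array AD-286 (adjusted p = 0.0541). COL3A1, the chain of type III collagen, fell by 0.60 (SE 0.13, adjusted p = 0.0168), with a small overlap. COL12A1, a collagen on fibril surfaces, fell by 0.64 (SE 0.12, adjusted p = 0.0075). SPARC, a collagen-binding protein of matrix-forming cells, fell by 0.83 (SE 0.11, adjusted p = 0.00218). COL15A1 fell by 0.68 (SE 0.16, adjusted p = 0.0211), a call lost without adult array AD-204, adult array AD-286 or 10-week array 8 (largest adjusted p 0.0556). COL11A1 fell by 0.68 (SE 0.19, adjusted p = 0.048) from a low level of 5.41, and was called in 3 of 10 leave-one-out fits (largest adjusted p 0.104). COL11A1 has 2 probe sets brighter in lung, which changed by -0.21 and -0.15 with overlap.

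Basement membrane genes had a median change of -0.38, with 11 of 12 negative. COL4A4, a type IV collagen chain found in alveolar basement membrane, read 8.70, 8.86, 8.97, 8.96 and 9.10 at 10 weeks and 7.71, 8.23, 7.88, 7.67 and 7.57 in adults. All adult arrays lay below all 10-week arrays, and COL4A4 fell by 1.11 (SE 0.13, adjusted p = 0.000854). COL4A1, the common type IV chain, fell by 0.70 (SE 0.12, adjusted p = 0.00529), and NID1, which links laminin to type IV collagen, fell by 0.69 (SE 0.11, adjusted p = 0.00397).

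Proteoglycans and matricellular proteins split by direction: of 23 measured, 5 rose and 3 fell. With all 15 lung arrays in the fit 3 rose and none fell, and with 30 arrays 6 rose and 1 fell. In the main fit the falls were VCAN, TNC and HAPLN1. VCAN, a large proteoglycan of provisional matrix, read 11.05, 10.94, 10.80, 10.58 and 11.34 at 10 weeks and 9.88, 10.04, 10.47, 10.28 and 10.09 in adults, without overlap, and fell by 0.79 (SE 0.15, adjusted p = 0.00954). TNC, a matrix protein of developing tissue, fell by 0.85 (SE 0.12, adjusted p = 0.00231), and HAPLN1, which links proteoglycans to hyaluronan, fell by 0.91 (SE 0.18, adjusted p = 0.0128).

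The greatest rise in that list was CCN5, a secreted protein of smooth muscle and fibroblasts, which read 7.75, 6.14, 5.81, 5.81 and 6.11 at 10 weeks and 8.85, 9.26, 9.18, 9.07 and 8.29 in adults. The 10-week arrays lay from 5.81 to 6.14 except array 7, which was still below every adult array. CCN5 rose by 2.61 (SE 0.33, adjusted p = 0.00157), a 6.1-fold higher level. THBS4, a thrombospondin of tendon and vessel matrix, rose by 1.29 (SE 0.24, adjusted p = 0.00865). POSTN, a matrix protein of fibroblasts, read 8.85, 8.70, 8.74, 8.87 and 9.18 at 10 weeks and 10.43, 9.96, 9.31, 9.14 and 9.87 in adults. Adult array AD-297 lay below 10-week array 12, and POSTN rose by 0.87 (SE 0.21, adjusted p = 0.0302), called in 4 of 10 leave-one-out fits (largest adjusted p 0.0724). ACAN, the proteoglycan of cartilage, rose by 0.63 (SE 0.12, adjusted p = 0.00964) from a low level of 5.63. Its other probe sets changed by -0.08 and 0.09, each with overlap. CCN2, a matricellular target of TGF-beta, rose by 0.32 (SE 0.09, adjusted p = 0.045) and was called in 1 of 10 leave-one-out fits (largest adjusted p 0.0992).

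Matrix proteases and their inhibitors showed 3 rises and 3 falls among 27. With all 15 lung arrays in the fit 3 rose and none fell, and with 30 arrays 5 rose and 2 fell. MMP16, a membrane-bound metalloprotease, read 7.63, 7.23, 7.22, 7.36 and 6.91 at 10 weeks and 5.87, 6.32, 6.44, 6.18 and 5.86 in adults, without overlap, and fell by 1.14 (SE 0.15, adjusted p = 0.0019). A second MMP16 probe set of lower brightness changed by -0.06, with overlap. MMP2, which digests type IV collagen, fell by 0.79 (SE 0.19, adjusted p = 0.0267), and TIMP3, a matrix-bound inhibitor, by 0.44 (SE 0.12, adjusted p = 0.0428). Both were called in only part of the leave-one-out fits, MMP2 in 5 and TIMP3 in 3 of 10 (largest adjusted p 0.067 and 0.102). CTSL, a lysosomal protease, rose by 1.24 (SE 0.28, adjusted p = 0.0229), PLAT, tissue plasminogen activator, by 0.69 (SE 0.17, adjusted p = 0.0329), and ADAM12 by 0.54 (SE 0.13, adjusted p = 0.0283). These 3 were called in 6, 5 and 5 of the 10 fits (largest adjusted p 0.0564, 0.0749 and 0.066). ADAMTS4, a protease that cuts aggrecan and versican, had the third greatest rise among genes whose arrays did not overlap. It was not a member of that list. ADAMTS4 read 6.74, 7.65, 6.85, 6.61 and 6.07 at 10 weeks and 9.73, 9.32, 8.63, 9.77 and 9.89 in adults and rose by 2.68 (SE 0.29, adjusted p = 0.000716), a 6.42-fold higher level.

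Several growth factors and receptors of lung mesenchyme and vessels were lower in adults. VEGFD, a growth factor for lymphatic vessels, read 9.54, 9.85, 9.63, 9.95 and 10.26 at 10 weeks and 7.35, 8.52, 8.57, 7.66 and 8.52 in adults. No adult array reached the 10-week range, and VEGFD fell by 1.72 (SE 0.24, adjusted p = 0.00247). VEGFC, its close relative, fell by 0.80 (SE 0.21, adjusted p = 0.0414), with overlap and a call in 2 of 10 leave-one-out fits (largest adjusted p 0.0981). KDR, the receptor for VEGF on endothelium, read 7.32, 6.95, 6.69, 7.45 and 7.13 at 10 weeks and 6.49, 6.46, 6.23, 5.83 and 6.39 in adults, without overlap, and fell by 0.83 (SE 0.16, adjusted p = 0.0113). ANGPT2, which loosens vessels for remodelling, fell by 0.88 (SE 0.13, adjusted p = 0.00287), and ANGPT1, which stabilises them, fell by 0.82 (SE 0.17, adjusted p = 0.013).

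PDGFRA, the receptor of fibroblasts that form alveolar septa, read 7.10, 6.96, 6.78, 7.31 and 7.96 at 10 weeks and 6.05, 6.91, 5.98, 6.07 and 5.99 in adults. Adult array AD-286 lay among the 10-week arrays and the other 4 adult arrays at 6.07 or below, and PDGFRA fell by 1.02 (SE 0.23, adjusted p = 0.0207). A second PDGFRA probe set changed by -0.19, with overlap. FGF10, the mesenchymal factor for epithelial growth, read 6.72, 6.6, 6.84, 6.14 and 6.41 at 10 weeks and 5.25, 5.83, 5.70, 6.12 and 5.91 in adults, separated by 0.02, and fell by 0.78 (SE 0.17, adjusted p = 0.0175). Of 39 measured growth factors of the growing lung, 7 fell and 5 rose, with a median change close to 0. With all 15 lung arrays in the fit 2 fell and 3 rose. The rises of the main fit included ligands of the epidermal growth factor family. NRG1 rose by 1.0 (SE 0.14, adjusted p = 0.00231) without overlap. AREG rose by 1.47 (SE 0.31, adjusted p = 0.0149) with overlap. CRABP1, which binds retinoic acid, rose by 1.32 (SE 0.29, adjusted p = 0.0179).

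Of the 22 genes in the fibroblast and myofibroblast list, the others that fell were MEOX2, TCF21, TGFBI and EDN1. The list's THY1, DCN, LUM, COL13A1, PI16 and FAP were measured and not called, and 7 of the 22 had a positive change. MEOX2, a homeobox regulator of mesenchyme, read 9.39, 9.25, 8.97, 8.87 and 8.74 at 10 weeks and 7.84, 7.90, 7.90, 7.48 and 7.95 in adults, and fell by 1.23 (SE 0.14, adjusted p = 0.000854) with a gap between the ages of 0.79. TCF21, a transcription factor of lung fibroblasts, fell by 0.66 (SE 0.18, adjusted p = 0.0412), EDN1, the vasoconstrictor endothelin, by 0.94 (SE 0.24, adjusted p = 0.0355), and TGFBI by 0.36 (SE 0.10, adjusted p = 0.0456). These were called in 2, 4 and 1 of 10 leave-one-out fits (largest adjusted p 0.0899, 0.0793 and 0.107).

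Signalling genes of the Wnt, Hedgehog, Notch, BMP and TGF-beta families gave 7 falls and 1 rise among 40 measured, with a median of -0.11. With all 15 lung arrays in the fit 2 fell and 1 rose, and with 30 arrays 4 fell and 2 rose. TGFB2, a TGF-beta ligand, read 9.14, 9.09, 9.11, 9.37 and 10.00 at 10 weeks and 8.36, 8.74, 7.99, 8.09 and 8.12 in adults, without overlap, and fell by 1.08 (SE 0.19, adjusted p = 0.00684). The ligand BMP4 fell by 0.69 (SE 0.13, adjusted p = 0.00835), and BMPR2, the receptor gene mutated in inherited pulmonary hypertension, fell by 0.73 (SE 0.13, adjusted p = 0.00643). WNT11, a Wnt ligand of mesenchyme, fell by 0.79 (SE 0.14, adjusted p = 0.00615). FZD1, a Wnt receptor, ACVR1, an activin and BMP receptor, and LEF1, a transcription factor of Wnt signalling, changed by -0.67, -0.53 and -0.45 (adjusted p = 0.0355, 0.0224 and 0.0344). ACVR1 lost its call without 10-week array 7 or 11 (largest adjusted p 0.0552). FZD1 was called in 2 and LEF1 in 4 of 10 leave-one-out fits (largest adjusted p 0.0808 and 0.0806). The rise in the main fit was INHBA, the activin subunit, by 0.91 (SE 0.17, adjusted p = 0.00843).

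Endothelial markers had 6 falls and no rise among 29, with a median of -0.09. With all 15 lung arrays in the fit none of them was called. Beside KDR, EMCN, a sialomucin of capillaries, read 12 to 12.24 at 10 weeks and 11.21 to 11.78 in adults and fell by 0.61 (SE 0.11, adjusted p = 0.00795). APLNR, the apelin receptor, fell by 0.70 (SE 0.16, adjusted p = 0.0191). CLDN5, a tight junction protein, fell by 0.60 (SE 0.14, adjusted p = 0.0254), ERG, an endothelial transcription factor, by 0.57 (SE 0.15, adjusted p = 0.0361), and EDNRB, an endothelin receptor, by 0.81 (SE 0.22, adjusted p = 0.0426). The last 3 were called in 5, 3 and 3 of 10 leave-one-out fits (largest adjusted p 0.0644, 0.0875 and 0.0978). The mean level of the list ran from 8.71 to 8.86 at 10 weeks and from 8.42 to 8.77 in adults, so as a list the ages overlapped.

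Smooth muscle genes gave 2 rises and 2 falls among 17. DES, desmin of muscle intermediate filaments, read 7.24, 7.55, 7.70, 7.65 and 7.84 at 10 weeks and 8.92, 8.40, 8.94, 8.17 and 8.29 in adults, without overlap, and rose by 0.95 (SE 0.17, adjusted p = 0.00729). MYH11, the smooth muscle myosin, rose by 0.55 (SE 0.11, adjusted p = 0.00991). KCNJ8, a potassium channel of pericytes, fell by 0.85 (SE 0.23, adjusted p = 0.0427), and CALD1, a myosin regulator, by 0.68 (SE 0.18, adjusted p = 0.0436). These were called in 2 and 1 of 10 leave-one-out fits (largest adjusted p 0.0889 and 0.078). Array 12 had the highest list mean at 10 weeks, 9.11. Without it, 5 of the 17 rose and none fell.

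**Figure D3:**
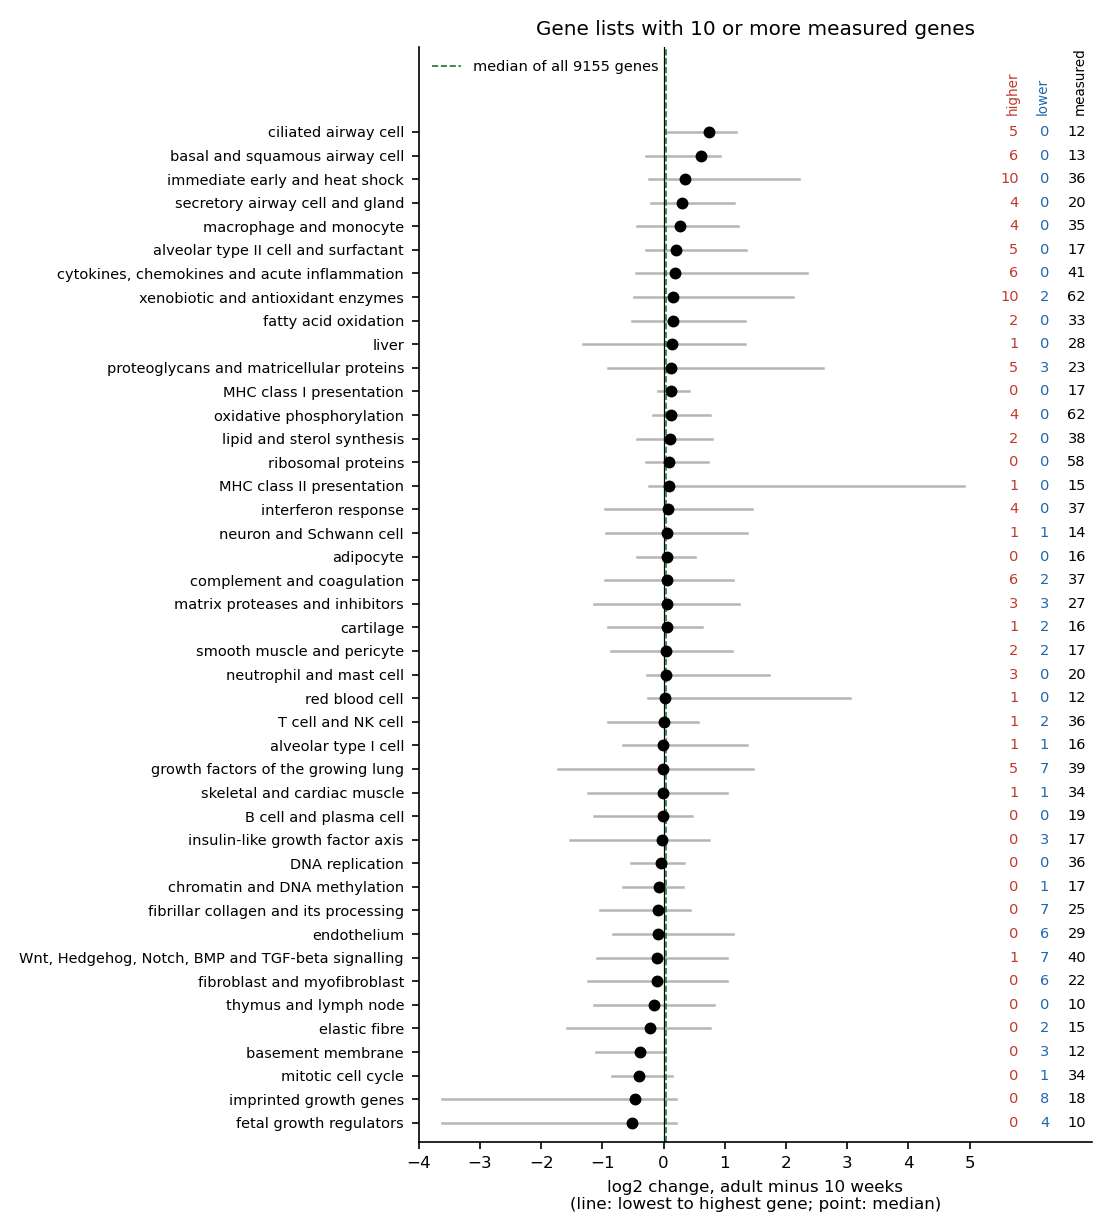
Each list with 10 or more measured genes (y axis) is shown by its lowest, median and highest log2 change from 10 weeks to adulthood (x axis), with the counts called higher and lower and the number measured at the right. The median of all genes is the dashed line at 0.04, and the lists' medians run from -0.51 (fetal growth regulators) to 0.74 (ciliated airway cell).

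Surfactant genes rose in part. Of 17 alveolar type II genes, 5 rose and none fell, and with all 15 lung arrays in the fit 2 rose. SFTPA1, a surfactant collectin that binds microbes, read 8.78, 8.40, 8.22, 8.74 and 8.73 at 10 weeks and 9.67, 9.87, 9.36, 9.54 and 9.16 in adults, without overlap, and rose by 0.95 (SE 0.15, adjusted p = 0.00397). SFTPA1 is read by 3 probe sets, and the reported one is the brightest over all 30 arrays. Another rose by 0.55 without overlap. The one brightest in lung, at 9.99 at 10 weeks and 10.07 in adults, changed by 0.08 (SE 0.13) with overlap. SFTPD, the other surfactant collectin, read 9.63, 9.97, 9.97, 9.95 and 10.39 at 10 weeks and 10.66, 10.69, 10.78, 10.60 and 10.61 in adults and rose by 0.69 (SE 0.13, adjusted p = 0.00795). The surface-active proteins were not called on the reported probe sets. SFTPC changed by 0.17 (SE 0.09, adjusted p = 0.302), with a 95% interval of the change from -0.03 to 0.38. SFTPB read 12.41, 11.44, 11.74, 11.14 and 10.86 at 10 weeks and 11.67, 11.54, 11.55, 11.79 and 11.75 in adults, and changed by 0.14 (SE 0.23, adjusted p = 0.782), with an interval from -0.36 to 0.64. The 10-week arrays of SFTPB spread over 1.55 and the adult arrays over 0.26. Without array 12 the SFTPB change was -0.02. A second SFTPB probe set, brighter in lung, averaged 12.07 at 10 weeks and 12.32 in adults, a change of 0.25 (SE 0.09) without overlap. ABCA3, the lipid transporter of lamellar bodies, rose by 0.53 (SE 0.14, adjusted p = 0.0382), called in 3 of 10 leave-one-out fits (largest adjusted p 0.0926). SLC27A2, a fatty acid transporter, read 7.52, 7.12, 8.03, 7.17 and 7.02 at 10 weeks and 9.08, 8.63, 9.11, 8.43 and 8.32 in adults, without overlap, and rose by 1.34 (SE 0.21, adjusted p = 0.00372). MUC1, a mucin of apical membranes, rose by 0.90 (SE 0.12, adjusted p = 0.0019). The mean of the list ran from 9.24, in array 12, to 9.54 at 10 weeks, and from 9.68 to 9.78 in adults.

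Alveolar type I genes had 1 rise and 1 fall among 16. The rise was AQP4, a water channel, which read 10.24, 10.03, 9.86, 8.91 and 9.13 at 10 weeks and 10.82, 11.05, 11.65, 10.59 and 10.85 in adults and rose by 1.36 (SE 0.27, adjusted p = 0.0108) without overlap. The fall was IGFBP2, given above with the insulin-like growth factors. Without array 12 the list had 2 rises and no fall. AGER, the receptor that marks type I cells, changed by 0.41 (SE 0.14, adjusted p = 0.0951), with a 95% interval from 0.11 to 0.71. AQP5, another water channel, changed by 0.45 (SE 0.13, adjusted p = 0.0573). Neither was called with all arrays.

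In each of 3 lists of airway epithelium some genes rose and none fell. All 12 measured ciliated cell genes had a positive change, 5 of them called, with a median of 0.74. ROPN1L, a protein of the ciliary radial spoke, read 9.24, 8.80, 8.72, 8.23 and 8.60 at 10 weeks and 9.94, 9.85, 10.22, 9.68 and 9.81 in adults, and rose by 1.18 (SE 0.17, adjusted p = 0.0025). TEKT1, a filament of ciliary microtubules, read 8.04, 8.04, 8.35, 7.75 and 8.17 at 10 weeks and 9.23, 9.40, 9.06, 8.79 and 8.76 in adults, and rose by 0.98 (SE 0.15, adjusted p = 0.00303). Neither gene's ages overlapped. RSPH9, a radial spoke head protein, rose by 0.70 (SE 0.13, adjusted p = 0.0083), STK33 by 0.87 (SE 0.20, adjusted p = 0.0206), and DYDC2 by 0.85 (SE 0.19, adjusted p = 0.0211). DYDC2 lost its call without 10-week array 10 (adjusted p = 0.0542). The list's mean ran from 7.48 to 7.86 at 10 weeks and from 8.16 to 8.53 in adults, with no overlap. Of the 41 genes listed only these 12 were measured here, and neither the defining markers FOXJ1 and DNAI1 nor the secretory markers SCGB1A1 and SCGB3A1 were among the genes tested.

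Of 13 basal and squamous airway genes, 6 rose and none fell, with a median of 0.62. With all 15 lung arrays in the fit none was called. The keratins KRT5, KRT14, KRT15 and KRT17 and the receptor NGFR, the defining markers of basal cells, were measured and not called. Of the 6 that rose, KRT7, KRT8, KRT18 and KRT19 are keratins of simple epithelium. KRT19 read 10.67, 10.99, 10.77, 10.84 and 10.81 at 10 weeks and 11.70, 11.75, 11.97, 11.50 and 11.44 in adults, and rose by 0.85 (SE 0.11, adjusted p = 0.0019) without overlap. ITGB4, the integrin of hemidesmosomes, rose by 0.92 (SE 0.20, adjusted p = 0.0182), and S100A2, a calcium-binding protein of basal cells, by 0.64 (SE 0.13, adjusted p = 0.0129). The keratins KRT7, KRT8 and KRT18 rose by 0.62, 0.69 and 0.75 (adjusted p = 0.0267, 0.0233 and 0.0369). These 3 were called in 6, 5 and 3 of 10 leave-one-out fits (largest adjusted p 0.0671, 0.061 and 0.0845). KRT23, a keratin outside the list, read 7.20, 7.30, 7.19, 7.28 and 6.82 at 10 weeks and 9.59, 8.79, 9.31, 8.52 and 7.93 in adults, and rose by 1.67 (SE 0.26, adjusted p = 0.00345).

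Of 20 secretory airway genes, 4 rose and none fell, with a median of 0.30. TFF3, a peptide that protects mucosa, read 9.61, 10.06, 10.15, 10.04 and 10.29 at 10 weeks and 10.88, 11.20, 11.58, 10.87 and 10.86 in adults, and rose by 1.05 (SE 0.17, adjusted p = 0.00354). CYP4B1, a cytochrome P450 of lung secretory cells, read 10.19, 10.33, 10.42, 9.83 and 10.48 at 10 weeks and 10.75, 11.51, 11.07, 11.49 and 11.32 in adults, and rose by 0.98 (SE 0.17, adjusted p = 0.00533). ALDH1A1, which makes retinoic acid, rose by 0.49 (SE 0.12, adjusted p = 0.0335), called in 3 of 10 leave-one-out fits (largest adjusted p 0.0781). MUC1, above, is the fourth. PIGR, which carries antibodies across epithelium, changed by 0.48 (SE 0.16, adjusted p = 0.0859). Of 4 measured mesothelial genes RSPO1, a Wnt enhancer, rose by 0.89 (SE 0.18, adjusted p = 0.0112).

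Immune genes rose in selected families. The greatest rises of all were in 2 class II histocompatibility genes, BOLA-DQB1 and BOLA-DQA1, which encode the polymorphic chains of DQ that present peptides to T cells. BOLA-DQB1 read 6.06, 6.38, 5.77, 5.75 and 6.04 at 10 weeks and 11.26, 12.67, 9.59, 12.02 and 11.81 in adults. Adult array AD-287 was the lowest adult, 3.21 above the highest 10-week array. BOLA-DQB1 rose by 5.47 (SE 0.44, adjusted p = 7.64e-05), a 44.4-fold higher reading on the reported probe set. BOLA-DQA1 read 6.46, 5.8, 5.59, 5.37 and 6.61 at 10 weeks and 11.56, 11.15, 8.61, 11.68 and 11.39 in adults, with the same adult array lowest, and rose by 4.91 (SE 0.51, adjusted p = 0.000716). Fetal lung was above 10-week lung for both genes. On the reported probe sets BOLA-DQB1 averaged 9.04 at fetal day 90 and 6.00 at 10 weeks, and BOLA-DQA1 6.85 and 5.97.

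The rise was not shared by all class II probes. A second BOLA-DQA1 probe set rose by 6.06. Of the 4 other BOLA-DQB1 probe sets, 2 that share a cluster with the reported set rose by 2.38 and 2.44, and the other 2 changed by 0.30 and -0.10. Without probe sets named as matching several transcripts BOLA-DQB1 was not called. BOLA-DRA, the constant chain of DR, read 12.53, 12.43, 12.40, 11.92 and 12.11 at 10 weeks and 12.16, 12.24, 12.36, 12.22 and 12.41 in adults and changed by 0.00 (SE 0.12, adjusted p = 1). BOLA-DQA2 changed by 0.16 (SE 0.24, adjusted p = 0.764). The list of class II presentation genes does not hold BOLA-DQB1. Of its 15 measured members only BOLA-DQA1 was called, and the list's median was 0.08, or -0.02 with centred arrays. In kidney, the adult arrays spread from 5.0 to 10.55 for BOLA-DQA1 and from 7.08 to 11.61 for BOLA-DQB1. The labels give no DQ genotype for any animal, and its part in these readings was not tested. Of 17 class I presentation genes none was called. The brightest were B2M, the class I light chain, at 13.32 ± 0.26 at 10 weeks and 13.45 ± 0.09 in adults, and PSMB8, of the immunoproteasome, at 12.86 ± 0.18 at 10 weeks and 13.11 ± 0.27 in adults.

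**Figure D4:**
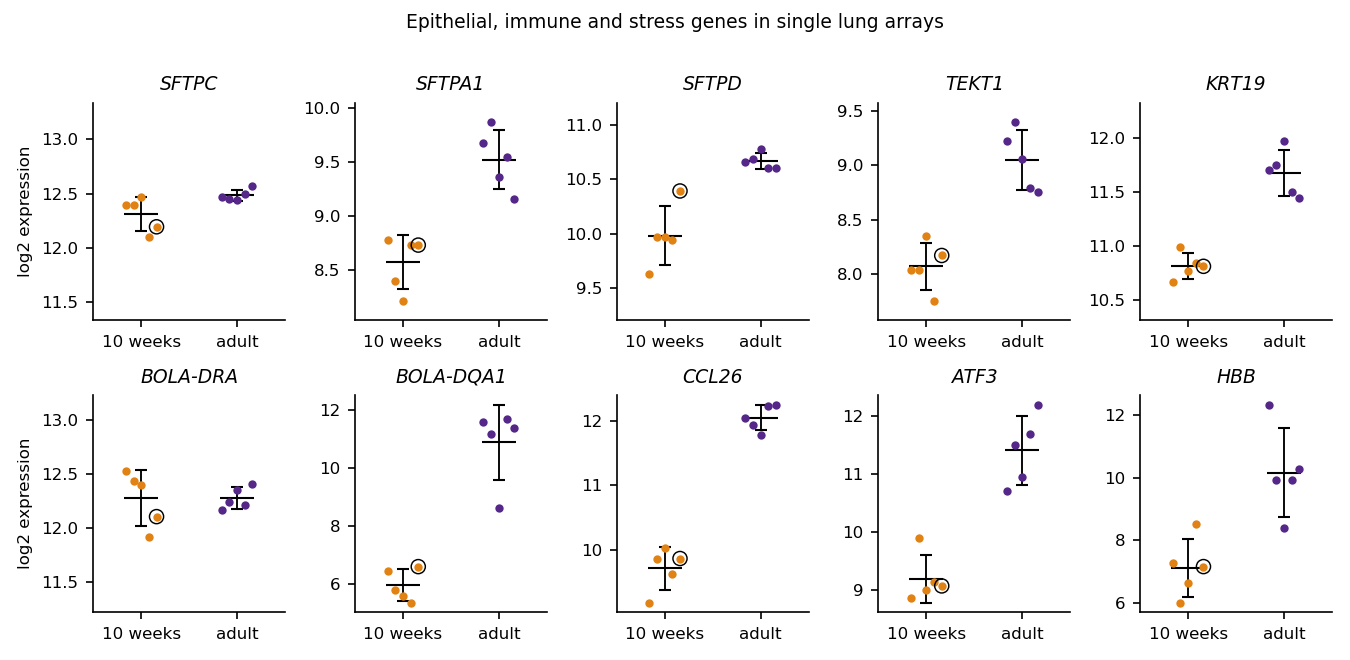
Log2 expression (y axis, a separate range per gene) of 10 epithelial, immune and stress genes in single lung arrays at 10 weeks and in adults, with mean and SD in black and array 12 circled. SFTPC and BOLA-DRA overlap between the ages, while the BOLA-DQA1 values of adults, 8.61 to 11.68, all exceed those at 10 weeks, 5.37 to 6.61.

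Cytokine and chemokine genes gave 6 rises and no fall among 41. Without array 12 there were 6 rises and 1 fall, and with array weights 7 rises and 1 fall. A further quantile normalisation or centred arrays gave 5 rises and 1 fall. CCL26, an eosinophil-attracting chemokine, had the smallest adjusted p of any rise. It read 9.19, 9.86, 10.03, 9.63 and 9.87 at 10 weeks and 12.05, 11.94, 11.79, 12.24 and 12.24 in adults, and rose by 2.34 (SE 0.16, adjusted p = 1.48e-05), a 5.05-fold higher level. The groups of arrays were 1.76 apart. CXCL8, which attracts neutrophils, read 9.96, 10.10, 9.96, 10.31 and 8.62 at 10 weeks and 10.70, 10.93, 11.16, 11.17 and 11.81 in adults, and rose by 1.36 (SE 0.29, adjusted p = 0.0166). Array 12 was the lowest, and no 10-week array reached the adult range. IL1A, an alarm cytokine, rose by 1.15 (SE 0.21, adjusted p = 0.00839), and CCL14, a monocyte-attracting chemokine, by 1.10 (SE 0.18, adjusted p = 0.00397). IL1RN, the natural blocker of interleukin-1, rose by 0.93 (SE 0.22, adjusted p = 0.0252), and CXCL14 by 1.08 (SE 0.27, adjusted p = 0.0318). They were called in 4 and 6 of 10 leave-one-out fits (largest adjusted p 0.0646 and 0.0682). IL12A, a subunit of interleukin-12 outside this list, fell by 1.34 (SE 0.31, adjusted p = 0.0239), called in 6 of 10 (largest adjusted p 0.0556).

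Myeloid cell markers rose in part. Of 35 macrophage and monocyte genes, 4 rose, none fell and 30 had a positive change, with a median of 0.26. The median was 0.15 without array 12 and 0.16 with centred arrays. CHI3L1, a chitinase-like protein of macrophages, read 8.84, 8.47, 8.30, 8.45 and 8.64 at 10 weeks and 9.78, 9.78, 9.95, 9.58 and 9.16 in adults, and rose by 1.11 (SE 0.15, adjusted p = 0.00205). TREM1, a receptor that amplifies inflammation, read 4.86, 5.13, 4.81, 5.09 and 5.45 at 10 weeks and 6.03, 6.93, 6.82, 5.93 and 5.68 in adults, and rose by 1.21 (SE 0.23, adjusted p = 0.0101). Both were free of overlap. FCGR2B, the inhibitory antibody receptor, rose by 1.2 (SE 0.24, adjusted p = 0.0128). TYROBP, an adaptor of myeloid receptors, rose by 0.40 (SE 0.11, adjusted p = 0.0407), called in 2 of 10 leave-one-out fits (largest adjusted p 0.097). The list's mean ran from 8.87, in array 12, to 9.12 at 10 weeks and from 9.18 to 9.40 in adults.

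Of 20 neutrophil and mast cell genes, 3 rose and none fell, with a median of 0.03, or -0.07 with centred arrays. CXCR1, a receptor for CXCL8, read 7.05, 7.89, 7.72, 7.38 and 7.34 at 10 weeks and 7.70, 10.19, 8.95, 9.20 and 9.98 in adults. Adult array AD-204 lay within the 10-week range, and CXCR1 rose by 1.73 (SE 0.38, adjusted p = 0.0191), a call lost without 10-week array 7 (adjusted p = 0.0517). S100A8, an abundant neutrophil protein, rose by 1.12 (SE 0.23, adjusted p = 0.0133), with overlap, and S100A12, its relative, by 0.68 (SE 0.12, adjusted p = 0.00691). For lymphocyte genes, the counts stand beside the 7.53% of all genes called. None of 19 B cell and plasma cell genes was called. JCHAIN, which joins secreted antibodies, read 12.38 ± 0.19 at 10 weeks and 12.67 ± 0.11 in adults, and IGHM, the heavy chain of IgM, 11.97 ± 0.43 at 10 weeks and 11.94 ± 0.19 in adults. Of 36 T cell and NK cell genes, NCR3, a receptor of natural killer cells, rose by 0.57 (SE 0.12, adjusted p = 0.0142). XCL1, a lymphocyte chemokine, fell by 0.91 (SE 0.14, adjusted p = 0.00331), and so did LEF1, given above.

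Of 37 complement and coagulation genes, 6 rose and 2 fell, with a median of 0.06, or -0.04 with centred arrays. None was called with all 15 lung arrays in the fit. CFB, a protease of the alternative pathway, read 10.79, 10.98, 10.89, 10.79 and 11.08 at 10 weeks and 12.31, 12.27, 12.02, 11.80 and 11.72 in adults, and rose by 1.12 (SE 0.13, adjusted p = 0.000854). The lowest adult array was 0.64 above the highest 10-week array. C4A, of the classical pathway, rose by 1.14 (SE 0.21, adjusted p = 0.00835), CFP, properdin, by 0.94 (SE 0.17, adjusted p = 0.00808), and CLU, clusterin, by 0.85 (SE 0.13, adjusted p = 0.00281). C3, the central component, read 13.03, 13.36, 13.24, 13.43 and 13.13 at 10 weeks and 13.91, 13.90, 13.75, 13.61 and 13.60 in adults, and rose by 0.52 (SE 0.11, adjusted p = 0.0149). C7, of the membrane attack complex, rose by 0.42 (SE 0.12, adjusted p = 0.048), called in 1 of 10 leave-one-out fits (largest adjusted p 0.113). The falls were F2R, the thrombin receptor, by 0.96 (SE 0.18, adjusted p = 0.00926), and COLEC12, a scavenger receptor of endothelium, by 0.59 (SE 0.12, adjusted p = 0.0142).

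The interferon response list gave 4 rises and no fall among 37, with a median of 0.08, or -0.03 with centred arrays. Without array 12 it gave 2 rises and 2 falls, with array weights 4 rises and 2 falls, and with centred arrays or 30 arrays in the fit 4 rises and 1 fall. RSAD2, an antiviral enzyme, read 6.15, 6.9, 6.62, 7.67 and 5.99 at 10 weeks and 7.41, 8.24, 8.11, 8.72 and 8.09 in adults. Adult array AD-204 lay below 10-week array 11, and RSAD2 rose by 1.45 (SE 0.30, adjusted p = 0.0149). IRF7, ISG15 and IFI35 rose by 0.77, 1.15 and 0.78 (adjusted p = 0.0283, 0.0439 and 0.0374). All had overlapping arrays, and they were called in 5, 2 and 2 of 10 leave-one-out fits (largest adjusted p 0.0685, 0.0844 and 0.0876). The list's mean was 7.75 in array 12, the lowest at 10 weeks, and also 7.75 in the lowest adult array, AD-299.

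Detoxifying and antioxidant enzymes gave 10 rises and 2 falls among 62, beside the 4.75% of all genes that rose, with a median of 0.16. With centred arrays they gave 6 rises and 2 falls, with a median of 0.06. PON1, an enzyme that hydrolyses lactones and organophosphates, read 9.32, 9.61, 10.49, 9.82 and 7.66 at 10 weeks and 11.87, 11.66, 11.50, 11.20 and 11.23 in adults. Array 12 was the lowest, and no 10-week array reached the adult range. PON1 rose by 2.11 (SE 0.40, adjusted p = 0.00932). GPX3, the secreted glutathione peroxidase, read 8.79, 8.69, 9.79, 9.33 and 9.16 at 10 weeks and 11.15, 11.55, 9.89, 10.34 and 11.51 in adults, and rose by 1.74 (SE 0.32, adjusted p = 0.00822), with adult array AD-287 only 0.10 above 10-week array 10. GPX2, the epithelial glutathione peroxidase, read 7.08, 7.05, 7.89, 7.05 and 6.66 at 10 weeks and 8.61, 8.72, 9.15, 8.27 and 8.07 in adults, and rose by 1.42 (SE 0.23, adjusted p = 0.00448). CYP2S1, a cytochrome P450 of epithelia, rose by 0.80 (SE 0.14, adjusted p = 0.00691), and GSTT1, a glutathione transferase, by 0.71 (SE 0.16, adjusted p = 0.0181). ALDH3B1, GPX4 and AKR1C4 rose by 0.40 to 0.60, and were called in 4, 3 and 3 of 10 leave-one-out fits (largest adjusted p 0.0841, 0.0981 and 0.0992). On its other probe sets AKR1C4 changed by 0.57, 0.02, -0.08, 0.20 and 0.08, all with overlap. CYP4B1 and ALDH1A1, given with the secretory cells, make up the 10. The falls were SULT1B1, a sulfotransferase, by 0.48 (SE 0.10, adjusted p = 0.0155), and MGST3, a microsomal glutathione transferase, which fell by 0.33 (SE 0.08, adjusted p = 0.0302) and was called in 3 of the 10 fits (largest adjusted p 0.074). Among these 62 genes, secretory and alveolar cell genes are counted too, and the part of cell makeup in the count was not tested.

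For energy metabolism genes, the counts stand beside the 4.75% of all genes that rose and the 2.77% that fell. Of 33 fatty acid oxidation genes 2 rose and none fell. With centred arrays 2 rose and 3 fell, with 30 arrays in the fit 2 rose and 2 fell, and with array weights 4 rose and 2 fell. UCP3, a mitochondrial carrier, read 8.64, 9.33, 9.18, 9.78 and 10.06 at 10 weeks and 10.25, 11.43, 10.69, 10.97 and 10.28 in adults, and rose by 1.32 (SE 0.28, adjusted p = 0.0148). ACSL5, which activates fatty acids, rose by 1.10 (SE 0.18, adjusted p = 0.00526). Of 38 genes of lipid and sterol synthesis, SREBF1, the regulator of lipid synthesis, rose by 0.79 (SE 0.14, adjusted p = 0.00543), and TM7SF2, a sterol reductase, by 0.50 (SE 0.12, adjusted p = 0.032), called in 4 of 10 leave-one-out fits (largest adjusted p 0.0743). Of 62 oxidative phosphorylation genes 4 rose, with a median of 0.12, or 0.02 with centred arrays, and none was called with all 15 lung arrays in the fit. NDUFV1, a complex I subunit, rose by 0.77 (SE 0.18, adjusted p = 0.0219), a call lost without adult array AD-204 or AD-286 (largest adjusted p 0.0577). UQCRC1, CYC1 and NDUFA2 rose by 0.34 to 0.60, and were called in 7, 2 and 0 of the 10 fits (largest adjusted p 0.0703, 0.112 and 0.109). No ribosomal protein gene was called among 58. Of these, 54 had a positive change, the median was 0.09, or -0.01 with centred arrays, and the list's mean was lowest in array 12. RPS3A read 14.12 ± 0.19 at 10 weeks and 14.21 ± 0.03 in adults and RPL19 14.12 ± 0.06 at 10 weeks and 14.17 ± 0.03 in adults.

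Immediate early and heat shock genes, which respond within minutes to stimuli and stress, gave rises and no fall. Of 36 measured, 10 rose, none fell and 32 had a positive change, with a median of 0.35. With centred arrays 5 rose, and without array 12 10 rose and 1 fell. ATF3, a stress-induced transcription factor, read 8.86, 9.90, 9.0, 9.14 and 9.07 at 10 weeks and 10.71, 11.50, 10.95, 11.69 and 12.19 in adults, without overlap, and rose by 2.21 (SE 0.27, adjusted p = 0.00106). FOSB, an immediate early transcription factor, read 7.35, 9.14, 7.71, 7.77 and 7.67 at 10 weeks and 9.74, 10.80, 8.75, 10.42 and 10.80 in adults. Array 8 stood above the other 10-week arrays and above adult array AD-287, and FOSB rose by 2.17 (SE 0.41, adjusted p = 0.00912). DNAJB1, a heat shock cochaperone, read 10.86, 11.19, 11.11, 11.06 and 10.77 at 10 weeks and 11.68, 11.30, 12.44, 12.02 and 12.15 in adults, without overlap, and rose by 0.92 (SE 0.19, adjusted p = 0.0126). JUN rose by 0.49 (SE 0.10, adjusted p = 0.0148), BAG3, a cochaperone, by 0.42 (SE 0.09, adjusted p = 0.0181), and DDIT4, a stress-induced inhibitor of mTOR, by 0.51 (SE 0.11, adjusted p = 0.0204). DDIT4 lost its call without adult array AD-286 (adjusted p = 0.0508). NR4A1, HSPA1A, HSPA8 and HSPD1 rose by 0.86, 1.03, 0.35 and 0.31 (adjusted p = 0.0253, 0.0431, 0.0339 and 0.048). They were called in 3, 1, 3 and 1 of 10 leave-one-out fits (largest adjusted p 0.0605, 0.0946, 0.078 and 0.111). The list's mean ran from 10.20, in array 12, to 10.54 at 10 weeks and from 10.56 to 11.02 in adults. The part of these genes in other changes was not tested. Of 7 clock genes, NFIL3, a transcription factor of the clock and of immune cells, read 10.71, 10.95, 11.10, 10.91 and 10.95 at 10 weeks and 11.46, 12.02, 11.87, 11.72 and 12.18 in adults, and rose by 0.93 (SE 0.13, adjusted p = 0.0027).

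Several of the greatest changes fell outside the pathway groups. S100A1, a calcium-binding protein, read 7.90, 8.13, 8.24, 8.28 and 9.27 at 10 weeks and 11.50, 10.81, 10.23, 10.50 and 10.40 in adults, without overlap, and rose by 2.32 (SE 0.27, adjusted p = 0.000854). FOLR3, a secreted folate-binding protein, rose by 2.47 (SE 0.33, adjusted p = 0.00184). Of its other probe sets, 1 rose by 1.30 with overlap and 1 changed by 0.08, and FOLR3 was not called without probe sets named as matching several transcripts. Among the 15 greatest rises without overlap was also CHST9, a sulfotransferase, by 1.82 (SE 0.24, adjusted p = 0.0019) on the reported probe set. That set averaged 3.97 at 10 weeks and 5.79 in adults. A second CHST9 set, brighter at 10 weeks, averaged 5.16 at 10 weeks and 5.23 in adults, a change of 0.07 with overlap. The 15 also held TFAP2A, a transcription factor of epithelia, which rose by 1.8 (SE 0.36, adjusted p = 0.0113). DCDC2B, another of them, rose by 1.76 (SE 0.28, adjusted p = 0.00346), and RRAGD, a GTPase of nutrient sensing, by 1.73 (SE 0.27, adjusted p = 0.00354).

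GFRA2, a receptor for neurturin, had the smallest adjusted p of all genes. It read 8.70, 8.18, 8.35, 8.40 and 8.90 at 10 weeks and 6.32, 6.07, 6.40, 6.11 and 5.98 in adults. The adult arrays lay within 0.41 of each other, 1.79 below the 10-week arrays, and GFRA2 fell by 2.34 (SE 0.14, adjusted p = 1e-05). NUDT11, a phosphohydrolase of inositol phosphates, read 5.98, 5.64, 5.99, 5.79 and 4.64 at 10 weeks and 3.32, 3.90, 3.80, 3.24 and 3.32 in adults, and fell by 2.09 (SE 0.24, adjusted p = 0.000854). Array 12 was the lowest at 10 weeks but above every adult array. A second NUDT11 probe set, brighter in lung, averaged 6.05 at 10 weeks and 6.07 in adults, a change of 0.02 with overlap. DNAJC12, a cochaperone of aromatic amino acid hydroxylases, fell by 1.84 (SE 0.27, adjusted p = 0.00281), and TUSC3, a subunit of the oligosaccharyltransferase, by 1.33 (SE 0.16, adjusted p = 0.000917). GABRA3, a GABA receptor subunit, fell by 1.34 (SE 0.26, adjusted p = 0.0104), PPIC, a prolyl isomerase of the secretory pathway, by 1.31 (SE 0.17, adjusted p = 0.00157), EFNB3, an ephrin, by 1.30 (SE 0.19, adjusted p = 0.0025), and ARHGAP42 by 1.26 (SE 0.18, adjusted p = 0.00265).

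Markers of other tissues and of blood were checked beside these results. HBB, a haemoglobin chain, read 7.26, 6.02, 6.63, 8.51 and 7.16 at 10 weeks and 12.31, 9.91, 8.38, 9.91 and 10.28 in adults. Adult array AD-204 was the highest by 2.04, adult array AD-287 lay below 10-week array 11, and HBB rose by 3.04 (SE 0.61, adjusted p = 0.0125). A second HBB probe set rose by 2.37 and the remaining 2 changed by -0.26 and 0.11, each with overlap. Of the other 11 measured red blood cell genes none was called, and the list's mean ran from 5.81 to 5.98 at 10 weeks and from 5.91 to 6.62 in adults. Of 34 skeletal and cardiac muscle genes, TCAP, a sarcomere protein, rose by 0.66 (SE 0.14, adjusted p = 0.0142). ANKRD1, a stress-responsive muscle protein, fell by 1.24 (SE 0.33, adjusted p = 0.0436), called in 3 of 10 leave-one-out fits (largest adjusted p 0.101). The list's mean was 6.29 to 6.47 at 10 weeks and 6.3 to 6.5 in adults. Of 16 cartilage genes, ACAN rose and COL11A1 and HAPLN1 fell, as above.

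Of 28 liver genes, KNG1, kininogen, rose by 0.98 (SE 0.21, adjusted p = 0.0164). The list's mean was highest in array 12 among the 10-week arrays, at 6.70, and in AD-204 among the adult arrays, at 7.15. Of 14 nerve genes, S100B, of Schwann cells, rose by 0.66 (SE 0.13, adjusted p = 0.00954), and SNAP25, of synapses, fell by 0.94 (SE 0.20, adjusted p = 0.0169). There was no call among 10 genes of thymus and lymph node, 16 of adipocytes, 8 of kidney tubule and 2 sex-linked transcripts. Their brightest members were the lymphoid chemokines CCL21, at 9.77 ± 0.33 at 10 weeks and 9.35 ± 0.44 in adults, and CCL19, at 8.34 ± 0.63 at 10 weeks and 8.29 ± 0.89 in adults. For adipocytes these were CFD, at 12.44 ± 0.23 at 10 weeks and 12.46 ± 0.30 in adults, and FABP4, at 9.29 ± 0.63 at 10 weeks and 9.58 ± 0.38 in adults. The kidney tubule markers CUBN and SLC34A1 were at 6.02 ± 0.23 at 10 weeks and 6.23 ± 0.20 in adults, and at 6.06 ± 0.33 at 10 weeks and 6.10 ± 0.18 in adults. Of the other defining markers fixed for these cell types and measured here, none was called: PECAM1, CDH5, ACTA2, CD68, CD3E, CD3D, CKM, MYH1, NPPA, COL2A1, ALAS2, ALB, APOA1, SLC12A1, MSLN, UPK3B, ADIPOQ and LEP. The part of these tissues in the other results was not tested.

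The same interval was measured in kidney, and the change in lung was compared with it in a fit of 20 arrays. The lung change differed from the kidney change for 295 genes (3.22%), 197 with the higher value in lung and 98 with the lower. With the numbers in the array titles as a block, on the assumption that they name animals, it differed for 385 genes, which include all 295. The share with the higher value in lung was 66.8%, against 50.6% after a further quantile normalisation and 43.1% with centred arrays. Of the 689 genes called in lung, 200 differed from kidney. The kidney comparison itself called 158 of 9155 genes (1.73%), 85 lower and 73 higher in adults. Falls were called in both tissues for 17 genes, which were 6.69% of the lung's falls and 20% of the kidney's. Of all genes, 2.77% fell in lung. Rises were called in both for 9, or 2.07% and 12.3%, while 4.75% of all genes rose in lung. Another 7 of the 158 were called in opposite directions.

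Of the 18 imprinted growth genes, 5 differed between the tissues, beside 3.22% of all genes: DLK1, PEG10, MAGEL2, CDKN1C and NNAT. DLK1 changed by -0.20 in kidney, and the difference of the changes, lung minus kidney, was -3.42 (SE 0.38, adjusted p = 4.45e-05). For PEG10 the kidney change was -0.26 and the difference -1.10 (SE 0.21, adjusted p = 0.00725). MAGEL2 changed by 0.48 in kidney (difference -1.28, SE 0.30, adjusted p = 0.0221) and CDKN1C by 0.05 (difference -0.59, SE 0.16, adjusted p = 0.0428). NNAT, an imprinted proteolipid of the developing nervous system, changed by 0.07 in lung and fell by 0.88 in kidney (adjusted p = 0.0196), with a difference of 0.95 (SE 0.24, adjusted p = 0.0304). With the mean of all probe sets CDKN1C and NNAT lost this call. MEST, PEG3, IGF2 and PLAGL1, also imprinted, and the fetal regulator IGF2BP3 had no called difference. MEST changed by -1.58 in kidney, with a difference of 0.61 (SE 0.30, adjusted p = 0.285). PEG3 changed by -0.92, IGF2 by -0.92, PLAGL1 by -0.18 and IGF2BP3 by -0.98 there, with adjusted p-values of the difference of 0.543, 0.532, 0.222 and 0.42.

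Some matrix genes fell in both organs and others differed between them. COL1A1 fell by 1.01 in kidney (adjusted p = 0.0157), with a difference of -0.02 (SE 0.24, adjusted p = 0.974). COL3A1 fell by 1.21 and ELN by 0.85 in kidney (adjusted p = 0.000983 and 0.009), with differences of 0.61 (SE 0.19, adjusted p = 0.0752) and -0.73 (SE 0.23, adjusted p = 0.0866). None of these 3 differences was called. Of the 25 genes for fibrillar collagen and its processing, 3 differed between the tissues, beside 3.22% of all genes. COL12A1 changed by 0.04 in kidney, with a difference of -0.68 (SE 0.16, adjusted p = 0.0246), a call lost with 30 arrays in the fit and without probe sets named as matching several transcripts. COL5A2, a chain of type V collagen, changed by -0.38 in lung and fell by 1.21 in kidney (difference 0.84, SE 0.19, adjusted p = 0.0167). SERPINH1, the collagen chaperone, changed by 0.04 in lung and fell by 0.73 in kidney (difference 0.76, SE 0.16, adjusted p = 0.0125).

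CCL26, CCN5, ADAMTS4 and S100A1 rose in lung and were not called in kidney. CCL26 changed by -0.07 there, with the smallest adjusted p of all differences, 2.41 (SE 0.20, adjusted p = 6.94e-07). In kidney CCL26 averaged 12.16 at 10 weeks and 12.08 in adults, beside 12.05 in adult lung. Kidney averages at 10 weeks and in adults were low for CCN5, 4.23 and 4.37, and were 5.52 and 5.79 for ADAMTS4. CCN5 changed by 0.14 in kidney (difference 2.47, SE 0.38, adjusted p = 0.000969), ADAMTS4 by 0.27 (difference 2.41, SE 0.35, adjusted p = 0.00049), and S100A1 by 0.21 (difference 2.11, SE 0.35, adjusted p = 0.00168). ATF3 rose in both, by 0.49 in kidney (adjusted p = 0.0388), with a difference of 1.72 (SE 0.31, adjusted p = 0.00385). AQP3, a water and glycerol channel, rose by 0.81 in lung (SE 0.11, adjusted p = 0.00205) and fell by 1.06 in kidney (adjusted p = 0.00234), with a difference of 1.87 (SE 0.17, adjusted p = 1.88e-06). CFP moved in opposite directions too, with -0.57 in kidney (adjusted p = 0.0219) and a difference of 1.51 (SE 0.21, adjusted p = 0.000381). PON1 changed by 0.33 in kidney, and its difference was not called (adjusted p = 0.0863).

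The differences for BOLA-DQB1 and BOLA-DQA1, 3.45 (SE 0.96, adjusted p = 0.0531) and 2.69 (SE 1.16, adjusted p = 0.217), were not called either. HBB had a difference of 3.05 (SE 0.67, adjusted p = 0.015) on the reported probe set. AFP, the fetal plasma protein, changed by 1.33 in lung and -1.67 in kidney, with neither called, and had a difference of 3.0 (SE 0.67, adjusted p = 0.0159). On AFP's other probe set, that difference was -0.25.

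Of the genes whose change was lower in lung than in kidney, NUDT11 changed by 0.51 in kidney on the reported probe set (difference -2.60, SE 0.30, adjusted p = 4.46e-05), TUSC3 by 0.24 (difference -1.57, SE 0.20, adjusted p = 0.000171) and GFRA2 by -0.65 (difference -1.68, SE 0.33, adjusted p = 0.00733). APOC3, an apolipoprotein, changed by -1.31 in lung and 1.60 in kidney (difference -2.91, SE 0.66, adjusted p = 0.0192), with neither change called. Its lung change leans on 10-week array 12, which read 10.28 against 7.27 to 8.10 in the other 10-week lung arrays. For MYBPC1, a myosin-binding protein of muscle, the difference came from kidney, where it rose by 3.08 (adjusted p = 0.00314). The lung change was 0.30 and the difference -2.78 (SE 0.47, adjusted p = 0.00204).

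**Figure D5:**
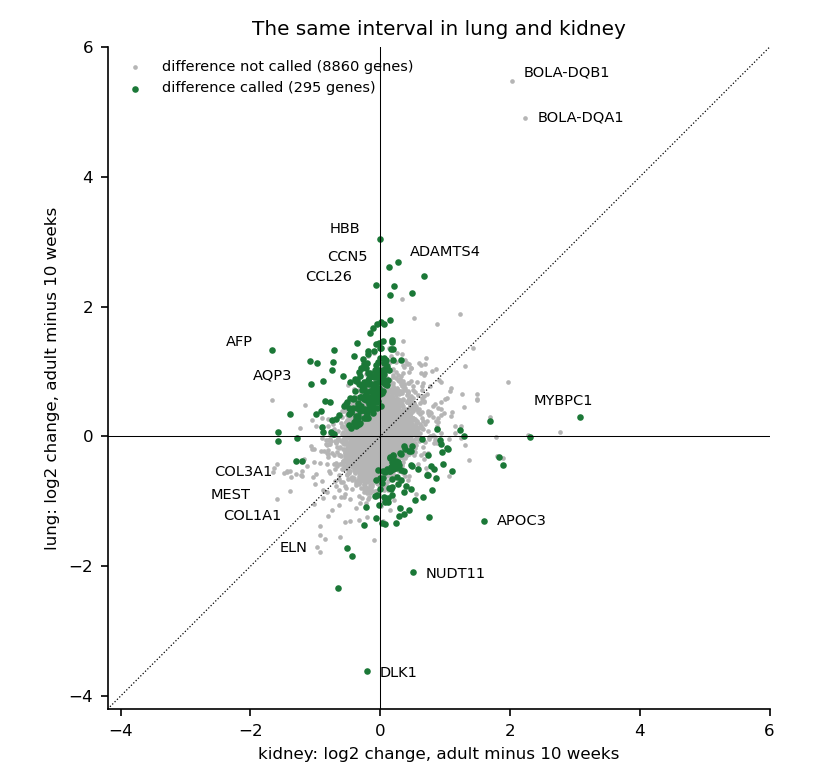
Log2 change from 10 weeks to adulthood in lung (y axis) against the same change in kidney (x axis), 1 point per gene, with equal changes on the dotted line. The 295 genes with a called difference are green. DLK1 lies at -3.61 in lung and -0.20 in kidney, while COL1A1 and ELN lie below 0 in both.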

How the data were processed

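The authors deposited log2 values for 30 arrays and 24128 probe sets, which range from 2.44 to 15.23. Per the submitters' processing notes the authors used RMA and Partek, whose versions are not given in the sources used here. The method subtracts background, brings arrays to a common distribution and compresses changes of dim probe sets. Detection calls were not used here, so signal over background is unknown, and 5 arrays a group limit the precision. Gene names came from the annotation of the platform, in which 10638 probe sets are not listed, 86 carry several symbols and 13292 carry 1. The 112 control probe sets were left out. Of 9155 genes tested, 8492 had a symbol in a sheep gene table. Where a gene had several probe sets (2913 genes), the brightest on average across the 30 arrays stands for it. No column was left unmapped (0 columns).

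The 10 lung arrays were fitted with limma 3.58.1 (lmFit and eBayes) in R 4.3.3, two-sided, with Benjamini-Hochberg adjustment over all genes and a threshold of 0.05. A gene is called higher or lower where it passes. The difference from kidney was the contrast of the changes in a fit of 20 arrays. The script was tested on simulated arrays. Lung adult and 10-week arrays share no number, so their comparison has no pairing. Numbers 7, 8, 10 and 11 occur in lung and kidney at 10 weeks. The deviations from the group means of same-numbered arrays correlated at 0.10, 0.20, 0.11 and 0.15. Arrays of unlike number were not compared, so these values cannot show that the numbers pair the tissues. No label says that the numbers name animals, and the block takes this as an assumption. The fit with this block is given beside the kidney comparison.

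The comparison, the 47 gene lists and the tests were chosen with earlier results of these data known. The genes named are the 15 greatest rises and falls of called genes with no overlap between the ages, passing over locus identifiers, up to 4 called members of each list, the 2 brightest members of a list with no call, the 4 greatest called differences from kidney in each direction, and a fixed set of growth, matrix and lung genes. Of that set SCGB1A1 was not among the genes tested. Further called members of lists, and members that show where groups overlap, were named after their values were seen. Lists are described by counts and medians, with no test of a list. Alternatives were other sets of arrays in the fit, no dim genes (the lowest 25%), other probe set choices, other scalings, trend and robust settings, array weights, a 2-fold threshold and leaving out each array.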

Additional observations from a re-analysis of the deposited data

Results flagged for a closer look

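In 416 groups of 5 lung arrays, 1 gene at 1 age each, an array stood apart from the other 4 by Dixon's 95% rule in 31. The rule's rate of about 1 in 20 holds for unselected and independent groups. These genes were chosen from these data and share the same 10 arrays, so that rate is no reference for the count. Of the 31, 21 were at 10 weeks, 12 of them in array 12 and 6 in array 7, and 10 were in adults.

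Array 12 read above the other 10-week arrays for EZH2 (11.23 against 10.30 to 10.47), S100A12 (10.82 against 10.26 to 10.38), S100A1 (9.27 against 7.90 to 8.28) and APOC3 (10.28 against 7.27 to 8.10). It was also above them for KRT18 (9.21 against 8.49 to 8.56), CALD1 (8.98 against 8.30 to 8.44) and PSMB8 (13.17 against 12.70 to 12.84). It read below them for NUDT11 (4.64 against 5.64 to 5.99), KRT23 (6.82 against 7.19 to 7.30), CXCL8 (8.62 against 9.96 to 10.31), JCHAIN (12.04 against 12.42 to 12.50) and RPS3A (13.78 against 14.19 to 14.25).

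Array 7 read above the others for PLAGL1 (10.96 against 10.38 to 10.45) and CCN5 (7.75 against 5.81 to 6.14). It read below them for C4A (10.41), UQCRC1 (8.22), DDIT4 (10.68) and CFD (12.03). Array 8 was high for ATF3 (9.90) and FOSB (9.14), and array 11 for KRT8 (8.72).

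Among adults, array AD-287 read BOLA-DQA1 at 8.61, against 11.15 to 11.68 in the others, and was low for IGF1 (6.81). Array AD-204 was high for COL1A1 (12.40, against 11.67 to 11.87) and low for IGFBP2 (8.07) and UMOD (5.21). Array AD-297 was high for MAGEL2 (8.22) and low for MEOX2 (7.48) and IL1A (7.0). Array AD-286 was high for PDGFRA (6.91, against 5.98 to 6.07), and array AD-299 low for PSMB8 (12.62).

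Of the 208 named genes, 75 differed between lung and kidney in the change from 10 weeks to adulthood. The test was limma's for the difference, adjusted over all genes, of which 3.22% were called. Named genes were chosen partly for their lung changes and differences from kidney, so that share is no reference for the count. For the 33 genes whose difference the text gives, chosen in the same way, 22 were called. Lung minus kidney was positive for HBB (3.05), AFP (3.0), CCN5 (2.47), ADAMTS4 (2.41), CCL26 (2.41), S100A1 (2.11), AQP3 (1.87), ATF3 (1.72), CFP (1.51), NNAT (0.95), COL5A2 (0.84) and SERPINH1 (0.76). It was negative for DLK1 (-3.42), APOC3 (-2.91), MYBPC1 (-2.78), NUDT11 (-2.60), GFRA2 (-1.68), TUSC3 (-1.57), MAGEL2 (-1.28), PEG10 (-1.10), COL12A1 (-0.68) and CDKN1C (-0.59).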

How the results depend on the processing

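No gene was called in opposite directions by the main fit and any alternative. The lung comparison called 689 genes, 435 higher and 254 lower. With all 15 lung arrays in the fit it called 289 (195 higher, 94 lower), with array weights 1148 (720 and 428), and with a 2-fold threshold added 123 (87 and 36). With centred arrays 270 were higher and 423 lower. Leaving out each array in turn gave 408 to 917 calls, 248 to 597 higher and 146 to 320 lower. The difference from kidney, 295 genes with 197 higher and 98 lower in lung, was 448 with array weights (162 lower) and 135 with a 2-fold threshold (88 and 47). With 30 arrays in the fit 62 were lower, with repeated quantile normalisation 175 and with centred arrays 178. Leave-one-out fits gave 202 to 373, 126 to 237 higher and 75 to 140 lower. With the replicate block it was 385 (248 and 137), and the block could not be applied within lung, whose ages share no number. Of the 175 named genes called in lung, 116 kept their call in all 10 leave-one-out fits, 14 lost it without array 12, and 71 kept it in all 9 other settings (the 2-fold threshold aside).

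The sign changed in some alternative for 19 named values. Without probe sets named as matching several transcripts, HBB was -0.26 and AFP -0.21, and AFP's difference from kidney -0.25. With the mean of all probe sets, MEST's difference from kidney was -0.0186, XIST -0.0535, RFC5 -0.0064 and NNAT -0.0002. With centred arrays IGF2BP1 was -0.0905, BOLA-DRA -0.10, XIST -0.0597, RFC5 -0.0851, RPS3A -0.0162, RPL19 -0.0469, CFD -0.0827, SLC34A1 -0.0646, NNAT -0.0355 and SERPINH1 -0.067. With repeated quantile normalisation BOLA-DRA was -0.0025, RFC5 -0.0332, CFD -0.0061, NNAT -0.0434 and SERPINH1 -0.0051, and with array weights BOLA-DRA -0.0555 and CFD -0.0511. Leave-one-out changes ran from -0.0568 to 0.33 for BOLA-DQA2, -0.0899 to 0.0631 for BOLA-DRA, -0.41 to 0.14 for CCL19, -0.0835 to 0.10 for CFD, -0.0653 to 0.12 for IGF2BP1, and -0.20 to 0.0602 for IGHM. They ran from -0.0094 to 0.0322 for RFC5, -0.0002 to 0.12 for RPS3A, -0.0227 to 0.36 for SFTPB, -0.0754 to 0.14 for SLC34A1, -0.0163 to 0.16 for NNAT and -0.0178 to 0.0933 for XIST, and for COL1A1's difference from kidney from -0.15 to 0.0669. Of the lung changes among these only that of HBB was called with all arrays, and of the differences from kidney only that of AFP. The causes were not tested. Signal over background is unknown, so no limit of detection can be given for dim genes.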
